A study of Mus musculus with 59 samples.

Results

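Cathepsins are proteases that act for the most part inside lysosomes, and the RNA of 10 of them was followed here in 3 skeletal muscles of mice carrying human melanomas. The members were the rows of the deposited expression table with the gene symbols Ctsa, Ctsb, Ctsc, Ctsd, Ctsf, Ctsh, Ctsk, Ctsl, Ctss and Ctsz, which made 10 of the 47643 genes listed, and all 10 passed the filter on low values in every comparison. The table names 23 genes as cathepsins. Of the 13 others, 9 never exceeded 0.5 TPM (a transcript level corrected for transcript length and library size) in any library, and Ctse, Ctsg, Ctso and Ctsw reached at most 16.3, 10.3, 19.1 and 11.7 TPM. All animals were females of the NCI Ath/nude strain, athymic and without mature T cells, aged 4 months, and all carried a patient-derived melanoma xenograft that either induces cachexia (cachectic, CAC) or does not (non-cachectic, NONCAC). Each kind of melanoma is 1 xenograft stock, so cachexia cannot be told apart from other properties of these tumours. Diaphragms (Dia) came from mice that received intraperitoneal recombinant Fibcd1 (rFibcd1), a protein secreted by muscle, or an albumin vehicle (mock): 9 NONCAC mock, 10 CAC mock, 10 NONCAC rFibcd1 and 10 CAC rFibcd1 libraries. Tibialis anterior (TA) and soleus (SOL), a fast and a slow hindlimb muscle, gave 5 NONCAC and 5 CAC libraries each, whose labels name no rFibcd1.

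Cathepsins are made as inactive precursors, tagged with mannose 6-phosphate in the Golgi, and carried by its receptors to lysosomes, where the acid kept up by the vacuolar proton pump activates them. Ctsd is an aspartic protease and Ctsa a serine carboxypeptidase that also protects other lysosomal enzymes, whereas the remaining members are cysteine proteases held in check by cystatins. In wasting muscle, lysosomal proteolysis works beside the ubiquitin ligases Trim63 and Fbxo32, and Ctsl has long been known among transcripts that increase during atrophy. Ctss, Ctsh and Ctsc are best known from immune cells, and Ctsk from cells that degrade collagen.

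The 59 libraries were given as TPM, so the read depth behind a value is unknown; between 16436 and 19456 genes were above 0 in a library. Transcripts of the mitochondrial genome made up 47.5% of the TPM in NONCAC mock and 38.1% in CAC mock diaphragms, 48.5% and 38.8% in TA, and 41.1% and 30.5% in SOL, and the median gene was higher in CAC libraries; whether these are related was not tested. A change is the limma log2 fold change of CAC over NONCAC on the log2(TPM + 1) scale, which understates changes of low genes, and a gene was called, or said to rise or fall, at a two-sided Benjamini-Hochberg adjusted p under 0.05 over all genes tested. Changes are set beside the all-gene median, which was 0.20 on the log2 scale in mock diaphragm, 0.08 in rFibcd1 diaphragm, 0.41 in TA and 0.09 in SOL. The libraries also fell into 2 states by a pseudogene, Pcna-ps2, which lay no lower than 5.60 TPM in 36 libraries (called high) and no higher than 0.428 TPM in the other 23 (called low). All 10 CAC limb libraries were high and all 10 NONCAC limb libraries low, so state and melanoma cannot be told apart there. In the diaphragm, 17 of 20 CAC and 9 of 19 NONCAC libraries were high, and cathepsin results are given below with state in the model where that changes them. Counts of other gene lists are from fits without state. One CAC soleus library (library 2; library numbers only name libraries within a group) stood apart in muscle fibre genes, with Myh4, a myosin of fast fibres, at 4989 TPM where the next highest of its group had 69.8 TPM, and the cathepsin calls and the gene list counts of soleus that change without it are given both ways.

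The 10 genes lie on 7 chromosomes (GRCm38, GENCODE annotation): Ctsa at chr2:164832873-164841032 and Ctsz at chr2:174427493-174439039, Ctsk at chr3:95499256-95509362 and Ctss at chr3:95526786-95556403, Ctsc at chr7:88278085-88310888 and Ctsd at chr7:142375911-142388038, Ctsh at chr9:90054152-90076089, Ctsl at chr13:64359337-64370890, Ctsb at chr14:63122462-63145923 and Ctsf at chr19:4855130-4860918. Ctsa, Ctsb and Ctsz overlap coding genes of the opposite strand (Neurl2 and Pltp, Fdft1, and Nelfcd) and Ctsd one of its own strand (Gm49369). Whether counting used the strand is not given in the sources used here, so their values may hold reads of those neighbours. Because lysosomal genes are known to share the letters CACGTG, the core of the element read by TFEB and its relatives, the 250 bases before each RefSeq start were searched for it on both strands (it is its own reverse complement). Of the 8 members with a window (all but Ctsb and Ctsh), Ctsa, Ctsd, Ctsf and Ctsl held it, 4 of 8 against 6.86% of 27025 genes. The longer palindrome TCACGTGA, which contains it, was in 2 of 8 members against 0.907% of genes, and GTAAACA, the letters read by FoxO factors, was in 0 of 8 against 3.54%. The 5 stretches that hold CACGTG are given here 5′ to 3′ on the gene's strand (GRCm38.p6, RefSeq), with those letters in capitals. The capitals begin 12 bases before the start in Ctsa, 245 and 98 bases in Ctsd, 79 in Ctsf and 236 in Ctsl.

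Ctsa, chr2:164833743-164833772, plus strand: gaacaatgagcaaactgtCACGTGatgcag

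Ctsd, chr7:142388048-142388077, minus strand: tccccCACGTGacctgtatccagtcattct

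Ctsd, chr7:142387908-142387937, minus strand: tcgcccgcgtctCACGTGacccgttgaggg

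Ctsf, chr19:4855074-4855103, plus strand: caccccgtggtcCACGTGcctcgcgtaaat

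Ctsl, chr13:64370739-64370768, minus strand: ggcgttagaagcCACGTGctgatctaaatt

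In this annotation the Ctsa stretch, the Ctsl stretch and the Ctsd stretch nearer the start overlap exons of their own gene, which has starts further upstream, while the other two lie outside coding genes. A match is a run of letters and not a shown binding site. Ctsk and Ctss are neighbours on chromosome 3, with starts 27530 bases apart and the same orientation, and their transcripts behaved differently in these muscles (below), so both windows are shown. The capitals mark GAGGAA or its reverse complement TTCCTC, the core letters read by the myeloid factor PU.1, which 25.9% of all genes hold in such a window; Ctsk had 2 matches and Ctss 1, and Ctsc held it too.

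Ctsk, chr3:95498960-95499209, plus strand: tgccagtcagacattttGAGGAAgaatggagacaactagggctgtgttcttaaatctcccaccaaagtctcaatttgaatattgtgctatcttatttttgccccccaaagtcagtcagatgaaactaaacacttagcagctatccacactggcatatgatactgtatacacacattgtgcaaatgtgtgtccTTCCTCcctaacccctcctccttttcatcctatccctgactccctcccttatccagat

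Ctss, chr3:95526536-95526785, plus strand: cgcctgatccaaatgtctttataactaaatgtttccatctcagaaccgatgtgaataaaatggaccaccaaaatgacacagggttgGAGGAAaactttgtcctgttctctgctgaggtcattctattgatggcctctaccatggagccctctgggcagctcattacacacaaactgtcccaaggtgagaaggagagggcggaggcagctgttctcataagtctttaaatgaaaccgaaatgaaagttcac

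Together the 10 cathepsins made up 1081 ± 52.7 TPM (mean ± SD, n = 9) in NONCAC mock diaphragm and 1709 ± 407 TPM (n = 10) in CAC mock diaphragm. With rFibcd1 the totals were 1246 ± 209 (NONCAC, n = 10) and 1653 ± 424 (CAC, n = 10). In the limb the totals were 674 ± 22.4 and 1615 ± 1018 TPM in NONCAC and CAC TA, and 949 ± 23.3 and 1238 ± 197 TPM in NONCAC and CAC SOL (n = 5 each). The smallest totals were thus those of NONCAC TA, whose libraries (651.6 to 711.6 TPM) all lay below every other library, followed by NONCAC SOL (910.9 to 973.0 TPM), while the ranges of the other 6 groups overlapped except those of NONCAC mock (1004 to 1180 TPM) and CAC rFibcd1 diaphragm (1232 to 2610 TPM). As a share of each library's total, averaged over the libraries of a group, Ctsd made up 45.4 to 55.4%, and Ctsd, Ctsb and Ctsl together 77.7 to 89.6%. The averaged share of Ctsl was 10.9% in NONCAC TA and 19.4% in CAC TA, and that of Ctss ranged from 0.444% in NONCAC TA to 7.42% in CAC rFibcd1 diaphragm.

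**Figure D1:**
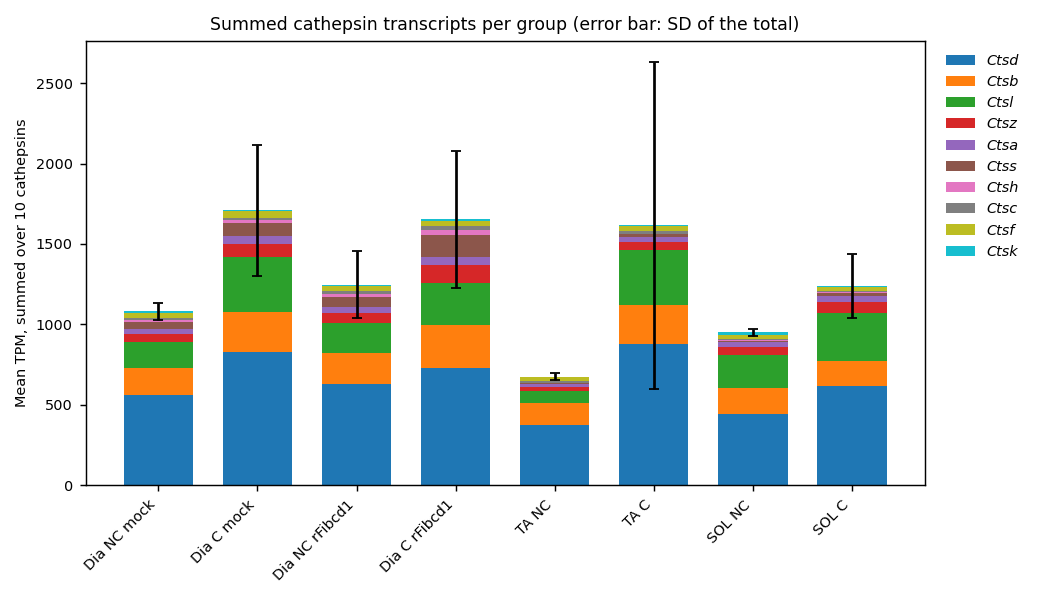
Mean TPM of the 10 cathepsins in each of the 8 groups, stacked by gene, with the SD of the summed level as error bar (n = 9 or 10 in diaphragm, 5 in TA and SOL; C, cachectic; NC, non-cachectic). Ctsd, Ctsb and Ctsl fill most of every bar, and the mean total of CAC TA (1615 TPM) carries an SD of 1018 TPM.

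**Figure D2:**
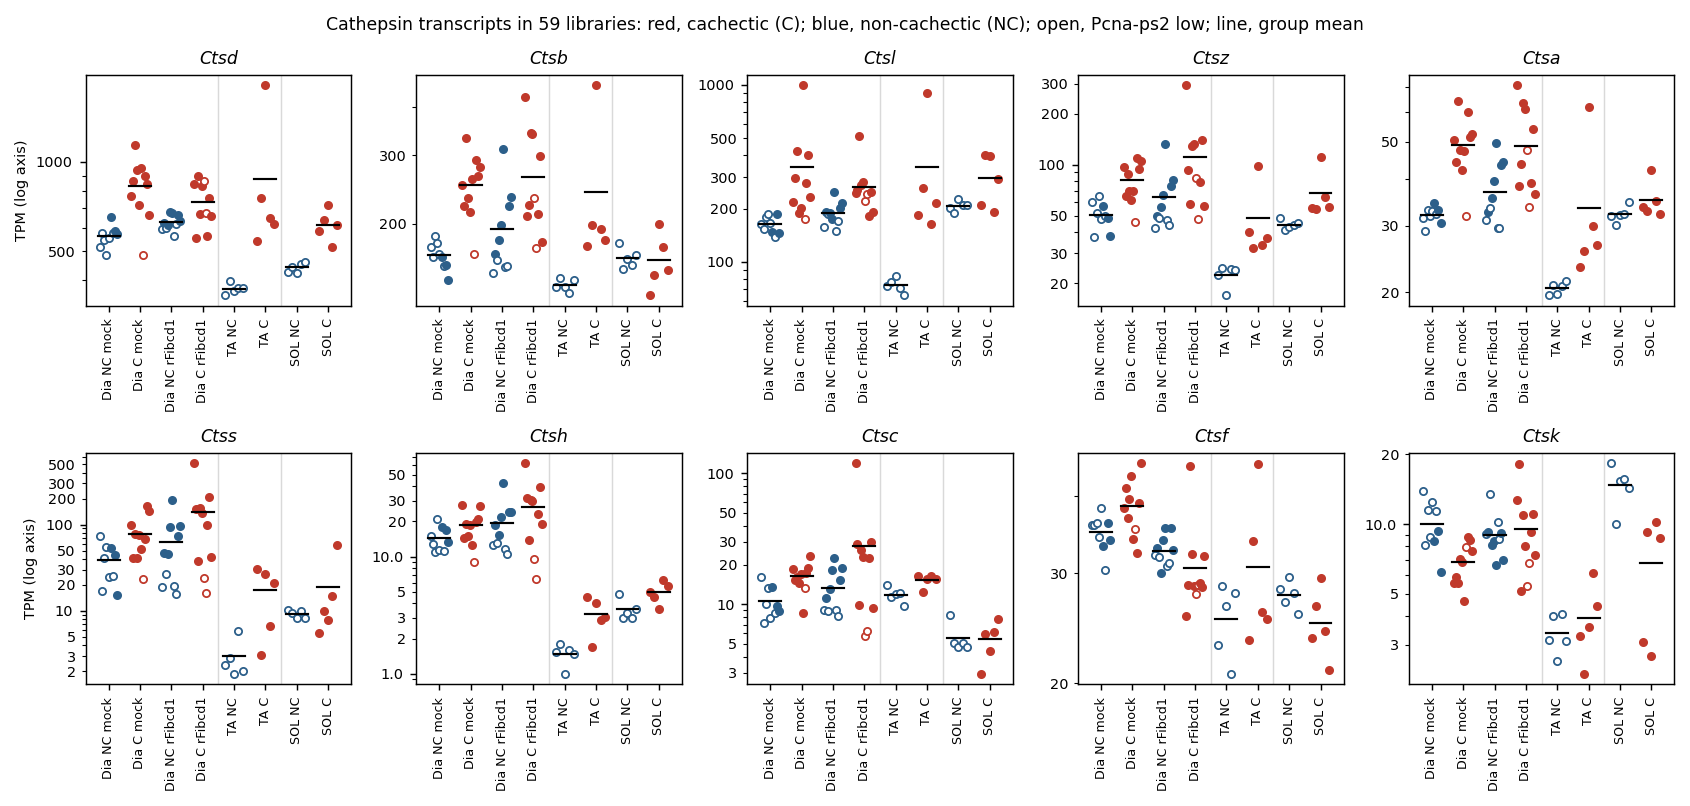
TPM of each cathepsin in all 59 libraries on log axes, 1 panel per gene with its own scale; red marks cachectic (C) and blue non-cachectic (NC) melanoma, open circles the low Pcna-ps2 state, and lines the group mean. CAC points lie above NONCAC points for Ctsd and Ctsl in TA, and Ctsk points of CAC SOL lie low. By group mean Ctsh and Ctsk are lowest in TA and Ctss in NONCAC TA, with CAC TA above NONCAC SOL for Ctss.

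The order of the 8 groups differed between genes. By mean level, Ctsd ran from NONCAC TA (373 TPM) through NONCAC SOL (441) and NONCAC mock diaphragm (561) to CAC SOL (614), NONCAC rFibcd1 diaphragm (626), CAC rFibcd1 diaphragm (730), CAC mock diaphragm (827) and CAC TA (876), and among neighbours in that order only the lowest 3 did not overlap. Ctsl was lowest in NONCAC TA (73.7 TPM), apart from all other groups, whose means ran from 163 TPM in NONCAC mock diaphragm to 345 TPM in CAC TA with overlap between all neighbours. Ctss ran from NONCAC TA (2.99 TPM) and NONCAC SOL (9.27), which did not overlap, through CAC TA (17.6) and CAC SOL (19.2) to the 4 diaphragm groups (38.8 to 138), with overlap between all further neighbours. For Ctsk, TA was lowest (3.38 TPM in NONCAC and 3.93 in CAC) and NONCAC SOL highest (14.7 TPM), with CAC SOL (6.77) and the diaphragm groups (6.84 to 10.0) between them and all neighbours overlapping.

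Without cachexia the 3 muscles already differed in cathepsin transcripts, and the widest gaps were those of Ctss and Ctsh. Ctss, an endopeptidase that processes antigens for MHC class II, stood at 38.8 ± 19.97 TPM (lowest 15.2, median 40.8, highest 74.6) in NONCAC mock diaphragm. In NONCAC SOL it was at 10.3, 9.36, 8.35, 10.1 and 8.25 TPM, and in NONCAC TA at 2.37, 2.84, 1.88, 5.85 and 2.01 TPM. The 3 muscles did not overlap. Ctsh, an aminopeptidase, followed the same order, with 14.4 ± 3.44 TPM in diaphragm, 3.54 ± 0.746 in SOL and 1.49 ± 0.297 in TA. In limma fits over all muscles, diaphragm exceeded TA by 3.22 (SE 0.464, adjusted p = 2e-07) for Ctss and 2.61 (SE 0.188, adjusted p = 2.91e-14) for Ctsh on the log2(TPM + 1) scale. Over SOL the excess was 1.78 (SE 0.464, adjusted p = 0.00247) and 1.75 (SE 0.188, adjusted p = 2.09e-09). The summed level of 16 macrophage markers moved with this order, with medians of 717 TPM in diaphragm, 151 in SOL and 53.6 in TA, none of these markers being at 0 throughout a group; its part in the result was not tested. In such bulk tissue, fewer cells of a type and less RNA per cell cannot be told apart. Diaphragm also carried mesothelial marker RNA (summed median 99.1 TPM) that TA lacked (0.138 TPM), and liver marker RNA that reached 9324 TPM in 1 NONCAC mock library (group median 25.5, NONCAC TA median 0.307). The summed medians of NONCAC mock diaphragm and NONCAC TA were 1012 and 228 TPM for fibroblast, 800 and 319 TPM for adipocyte and 486 and 41.1 TPM for antigen presentation markers. The part of these markers in the cathepsin levels was not tested.

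Against TA, 8 of the 10 cathepsins were higher in diaphragm, where 64.0% of the 13501 genes tested were, with a median over the members of 0.87 beside 0.44 over all genes. Besides Ctss and Ctsh these were Ctsk (1.31, SE 0.213), Ctsz (1.14, SE 0.201), Ctsl (1.13, SE 0.299), Ctsa (0.62, SE 0.136), Ctsd (0.58, SE 0.170) and Ctsf (0.45, SE 0.103), all at adjusted p of 0.00267 or less. After median-ratio scaling, which moves the all-gene median from 0.44 to 0.02, Ctsf turned to −0.08 and Ctsa and Ctsd were at 0.09 and 0.04, none of them passing, while Ctss, Ctsh, Ctsk, Ctsz and Ctsl stayed higher. Ctsb was at 0.25 (adjusted p = 0.123; −0.30, adjusted p = 0.00493, after scaling) and Ctsc, the dipeptidyl peptidase that activates granule proteases of leukocytes, at −0.18 (adjusted p = 0.362; −0.69, adjusted p = 0.00096, after scaling). Against SOL the muscles were closer: 4 members were higher in diaphragm (16.8% of genes were) and 1 was lower (22.1% of genes were), with a member median of 0.25 beside −0.04. The 4 were Ctss, Ctsh, Ctsc (0.81, SE 0.177, adjusted p = 0.000443) and Ctsf (0.32, SE 0.103, adjusted p = 0.0128), and the lower one was Ctsk (−0.52, SE 0.213, adjusted p = 0.0496). The Ctsk call was lost in 24 of 39 fits that left out 1 library (adjusted p up to 0.130). Between TA and SOL, 1 member was higher in TA (5.63% of genes were) and 6 were lower (63.9% of genes were). The higher one was Ctsc, at 11.9 ± 1.57 TPM in TA and 5.57 ± 1.53 in SOL (0.99, SE 0.201, adjusted p = 6.38e-05). Ctsk was lower in TA by the widest margin, with 3.15, 3.99, 2.56, 4.07 and 3.12 TPM in TA and 18.3, 9.97, 15.3, 15.7 and 14.3 TPM in SOL (−1.83, SE 0.242, adjusted p = 6.06e-08), and every SOL value lay above every TA value. The fibroblast markers moved with Ctsk in 2 of the 3 contrasts: all 7 were lower in TA than in SOL (median −1.62), with summed medians of 228 and 781 TPM, and all 7 were higher in diaphragm than in TA (median 1.89). Between diaphragm and SOL, where Ctsk was lower in diaphragm, 5 of the 7 were higher there and 1, Col1a2, was lower (median 0.96, summed medians 1012 and 781 TPM). Their part in the Ctsk levels was not tested. Ctsl (−1.49), Ctss (−1.44), Ctsz (−0.96), Ctsh (−0.86) and Ctsa (−0.63) were the others, at adjusted p of 0.0156 or less, and the member median was −0.74 beside −0.47 over all genes. In the main fit Ctsb passed in none of these 3 contrasts, and Ctsd in that of diaphragm against TA alone, although their libraries separated in some. Ctsd of all 9 diaphragm libraries lay above that of all SOL libraries (0.34, adjusted p = 0.104), where 11.6% of genes did so, and Ctsl below it (−0.36, adjusted p = 0.352), where 17.2% did. In TA all 5 libraries lay below all SOL libraries for Ctsd (−0.24, adjusted p = 0.270) and Ctsb (−0.23, adjusted p = 0.217), where 65.9% of genes did so, and after scaling both turned (0.36 and 0.37) and so did Ctsf (−0.13 to 0.45), all 3 passing. Without CAC library 3 of TA, which enters the fit through the shared spread, Ctsd passed in diaphragm against SOL (adjusted p = 0.0146) and Ctsb in diaphragm against TA (adjusted p = 0.0254). Neither passed in TA against SOL in that fit (adjusted p of 0.0699 or more).

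The first question of the design was what a cachectic melanoma does to the diaphragm relative to a non-cachectic one. In mock-treated mice, 5 of 10 cathepsins rose, where 30.9% of the 13426 genes tested rose, and 1 fell, where 2.67% fell. The member median was 0.58 beside 0.20 over all genes. Those that rose were the major proteases Ctsd, Ctsb and Ctsl and the carboxypeptidases Ctsa and Ctsz, and Ctsk fell. Ctsl, an endopeptidase, ranged from 137 to 186 TPM (median 164) in the 9 NONCAC libraries and from 175 to 999 TPM (median 257) in the 10 CAC libraries. Of the CAC libraries 9 lay above all NONCAC ones, and 1, library 6, lay far above the others. The change was 0.86 (SE 0.203, adjusted p = 0.00174) with that library and 0.66 (adjusted p = 0.00200) without it.

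Ctsd, which cleaves proteins broadly in the lysosome, ranged from 484 to 650 TPM (median 570) in NONCAC and from 485 to 1139 TPM (median 853) in CAC libraries. It rose by 0.53 (SE 0.103, adjusted p = 0.000308). Ctsb, an endopeptidase and dipeptidyl carboxypeptidase, ranged from 143 to 187 TPM (median 165) and from 168 to 332 TPM (median 256), a rise of 0.58 (SE 0.142, adjusted p = 0.00221). For both genes, 9 of 10 CAC libraries exceeded every NONCAC library. Ctsa, the carboxypeptidase known as protective protein, went from 32.0 ± 1.60 TPM (29.0 to 34.4, median 32.2) to 49.1 ± 9.06 TPM (31.9 to 64.2, median 49.1), by 0.58 (SE 0.122, adjusted p = 0.000579), again with 9 of 10 CAC libraries above the highest NONCAC one. For these 4 genes the CAC library inside the NONCAC range was the same one, library 7, the only CAC mock library of the low Pcna-ps2 state. No member separated the groups fully in diaphragm, where 4.07% of genes did so with CAC higher.

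Ctsz, a carboxypeptidase also called cathepsin X, ranged from 37.5 to 65.2 TPM (median 50.1) in NONCAC and from 46.2 to 109 TPM (median 79.2) in CAC libraries, 8 of which were above the NONCAC range. Its rise of 0.64 (SE 0.234, adjusted p = 0.0339) was lost in 7 of 39 fits that left out 1 library (CAC 1, 3, 8, 9 or 10, or NONCAC 2 or 9; adjusted p 0.0528 to 0.0681). Ctsk, a collagen-degrading protease, ranged from 6.21 to 13.9 TPM (median 9.29) in NONCAC and from 4.62 to 8.78 TPM (median 6.94) in CAC libraries. It fell by 0.48 (SE 0.160, adjusted p = 0.0204), with 4 of 10 CAC libraries below the lowest NONCAC one. Of 7 fibroblast markers, 1 (Dcn, 0.47) was higher and 0 were lower in the same contrast, with a median change of −0.22 beside 0.20 over all genes, and their summed median was 1012 TPM in NONCAC and 1178 TPM in CAC diaphragm; their part in the Ctsk result was not tested.

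The immune cathepsins did not pass in mock diaphragm in the main fit. Over the alternatives other than leaving out 1 library, 2 values gained a call, among the uncalled members Ctss, Ctsc, Ctsh and Ctsf. Ctss was at 15.2 to 74.6 TPM (median 40.8) in NONCAC and 23.6 to 165 TPM (median 71.9) in CAC libraries, and its change of 0.96 had a 95% interval of −0.05 to 1.97 (adjusted p = 0.132). Ctsc went from 10.6 ± 3.05 to 16.4 ± 3.91 TPM (0.59, interval −0.06 to 1.24, adjusted p = 0.150) and Ctsh from 14.4 ± 3.44 to 18.4 ± 5.97 TPM (0.30, interval −0.27 to 0.86, adjusted p = 0.410). The spread of Ctss among NONCAC libraries (coefficient of variation 51.5%) was about that of Ctss in CAC libraries (58.0%) and far above that of Ctsa (4.98%) or Ctsb (7.88%). Ctsf, a cysteine protease with a long propeptide, stood at 34.9 ± 2.25 and 38.5 ± 3.99 TPM (0.13, adjusted p = 0.128). With Pcna-ps2 state as a term, 4 of the 6 calls held, those of Ctsa (0.41, adjusted p = 0.0164), Ctsb (0.42, adjusted p = 0.0459), Ctsd (0.43, adjusted p = 0.00684) and Ctsl (0.73, adjusted p = 0.0228), while Ctsz (0.36, adjusted p = 0.337) and Ctsk (−0.41, adjusted p = 0.110) did not pass. After scaling each library to a common median ratio, which moves the all-gene median to 0.01, Ctsa, Ctsb and Ctsl stayed higher (0.35, 0.35 and 0.63) and Ctsk lower (−0.69), and Ctsd (0.30, adjusted p = 0.0781) and Ctsz (0.41, adjusted p = 0.150) no longer passed. In that fit 2170 of the 13426 genes were called in either direction.

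**Figure D3:**
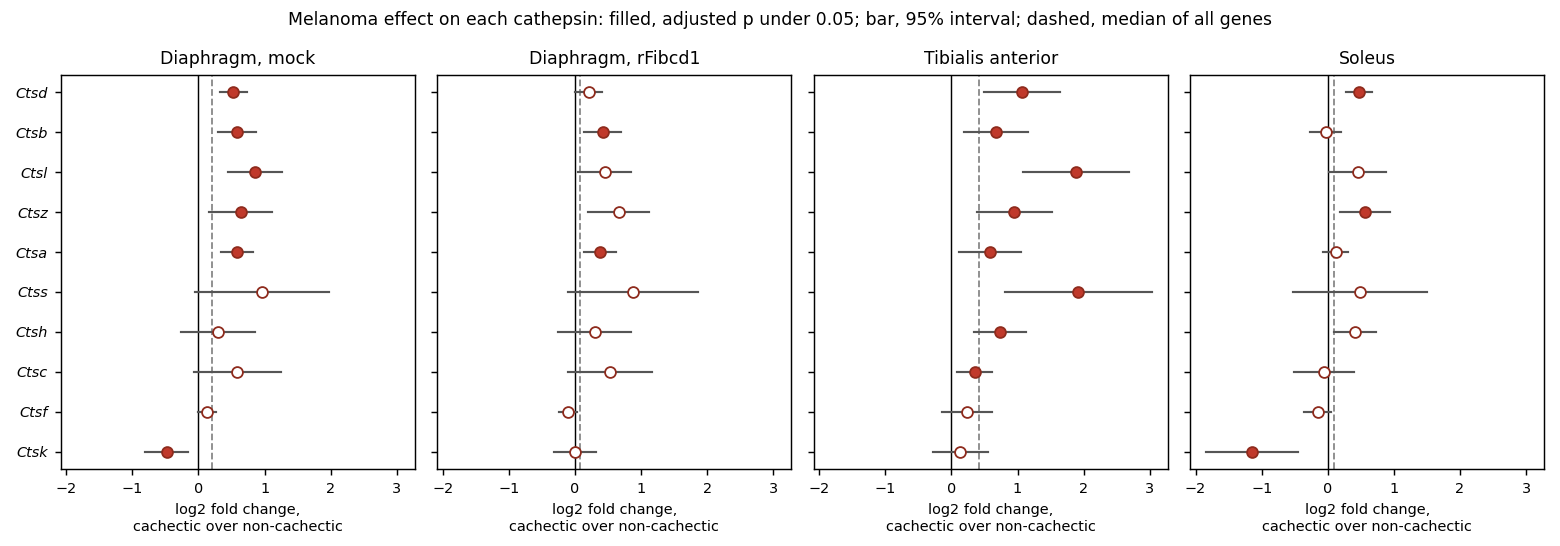
Log2 fold change (CAC over NONCAC, log2(TPM + 1) scale) of each cathepsin in 4 contrasts, with 95% intervals; filled points have an adjusted p under 0.05 and the dashed line is the median of all genes tested. In mock diaphragm 5 members lie above 0 and Ctsk below with filled points, in TA 8 lie above, and in SOL Ctsd and Ctsz lie above and Ctsk below.

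Among rFibcd1-treated mice, the same melanoma contrast called 2 of 10 cathepsins, both higher, where 7.14% of genes were higher, with a member median of 0.40 beside 0.08. Ctsa ranged from 29.6 to 49.8 TPM (median 34.4) in NONCAC and from 33.6 to 70.6 TPM (median 45.7) in CAC libraries (0.37, SE 0.118, adjusted p = 0.0403). Ctsb ranged from 150 to 312 TPM (median 174) and from 174 to 424 TPM (median 229) (0.42, SE 0.138, adjusted p = 0.0475). The groups overlapped widely for both. Ctsz had a larger estimate that just missed the threshold (0.67, SE 0.228, adjusted p = 0.0573), at 64.3 ± 27.4 TPM in NONCAC and 111 ± 72.4 in CAC. Ctsd (626 ± 37.1 and 730 ± 125 TPM, 0.21, adjusted p = 0.196), Ctsl (188 ± 28.6 and 266 ± 93.9 TPM, 0.45, adjusted p = 0.143) and Ctss (63.0 ± 54.8 and 138 ± 146 TPM, 0.88, adjusted p = 0.264) did not pass. Neither did Ctsc (13.5 ± 5.09 and 28.1 ± 33.4 TPM, 0.53, adjusted p = 0.292), Ctsh (19.5 ± 9.62 and 26.5 ± 16.4 TPM, 0.30, adjusted p = 0.521), Ctsf (32.7 ± 1.84 and 30.6 ± 5.28 TPM, −0.11, adjusted p = 0.329) or Ctsk (9.00 ± 1.90 and 9.48 ± 3.95 TPM, 0.00, adjusted p = 0.988). Both calls were lost without library 1 of the CAC rFibcd1 group (Ctsa 0.31, adjusted p = 0.0910; Ctsb 0.34, adjusted p = 0.111) and with Pcna-ps2 state in the model. Over the 39 fits that left out 1 library, that of Ctsa was lost in 10 and that of Ctsb in 27.

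Whether rFibcd1 changed cathepsins was asked within each melanoma. These contrasts share their groups with the ones above, so the values stand side by side and are not independent. In CAC mice 1 of 10 members changed, where 0.0447% of the 13426 genes did in either direction. This was Ctsf, which ranged from 32.3 to 45.1 TPM (median 38.6) in the 10 mock and from 25.6 to 44.6 TPM (median 28.7) in the 10 rFibcd1 libraries. Of the rFibcd1 libraries 9 lay below the lowest mock library and 1, library 3, lay near the top of the mock range. Ctsf fell by 0.33 (SE 0.0667, adjusted p = 0.0437), and by 0.39 without that library (adjusted p = 0.000166). The call stood close to the threshold: it was lost in 26 of 39 fits that left out 1 library (adjusted p up to 0.143) and after median-ratio scaling (−0.35, adjusted p = 0.0715), and it held with state in the model (−0.33, adjusted p = 0.0220). For the 9 other members the intervals were wide, such as −0.64 to 1.33 for Ctss, −0.60 to 0.19 for Ctsl and −0.37 to 0.04 for Ctsd. Ctsk was at 0.36 (interval 0.04 to 0.67, adjusted p = 0.422). The median of the members was 0.13 beside 0.03 over all genes.

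In NONCAC mice rFibcd1 changed 0 of 10 cathepsins by limma, where 0.417% of genes changed. Also at an unadjusted p below 0.05 there were 0 of 10 members, beside 2332 of the 13426 genes. The estimates ran from −0.13 for Ctsk to 0.43 for Ctss (interval −0.59 to 1.44), with a median of 0.20 beside 0.15. The test of whether the melanoma contrast differed with rFibcd1 also called 0 members, where 0.0223% of genes were called. At an unadjusted p below 0.05 it held Ctsd (−0.32, adjusted p = 0.551), Ctsf (−0.24, adjusted p = 0.548) and Ctsk (0.48, adjusted p = 0.558), beside 1180 of all genes. The smaller number of cathepsins called after rFibcd1 thus goes with a difference that was tested and did not pass for any member.

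In TA, 8 of 10 cathepsins rose with the cachectic melanoma and 0 fell, where 56.4% of the 11105 genes tested rose. The member median was 0.71 beside 0.41 over all genes, and Ctsl and Ctss showed the largest changes. Ctsl was at 73.1, 77.0, 82.7, 71.3 and 64.6 TPM in NONCAC and at 184, 262, 898, 164 and 216 TPM in CAC libraries. The lowest CAC value was above the highest NONCAC value, and library 3 was far above the other CAC libraries. Ctsl rose by 1.88 (SE 0.368, adjusted p = 0.00280) and, without library 3, by 1.46 (adjusted p = 1.17e-05). Ctss went from the values given above (2.99 ± 1.64 TPM) to 31.0, 3.06, 26.4, 6.65 and 21.03 TPM, a rise of 1.92 (SE 0.510, adjusted p = 0.00994). Its CAC libraries split into 3 at 21.03 TPM or more and 2 within or just above the NONCAC range.

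Ctsd was at 355, 395, 367, 375 and 375 TPM in NONCAC and at 542, 757, 1818, 646 and 620 TPM in CAC TA, without overlap, and rose by 1.07 (SE 0.264, adjusted p = 0.00737). Ctsz was at 22.2, 24.5, 17.0, 24.2 and 23.8 TPM and at 40.1, 32.3, 98.6, 33.6 and 37.1 TPM, also without overlap (0.95, SE 0.262, adjusted p = 0.0115). Ctsb (139 ± 5.06 and 241 ± 120 TPM, 0.68, SE 0.222, adjusted p = 0.0222) and Ctsa (20.5 ± 0.784 and 33.5 ± 15.96 TPM, 0.59, SE 0.216, adjusted p = 0.0350) completed the 5 members whose CAC libraries all lay above the NONCAC libraries, where 49.1% of genes did. In each of these 5 genes library 3 was the highest. Ctsh rose by 0.74 (SE 0.182, adjusted p = 0.00746), from 1.49 ± 0.297 to 3.24 ± 1.10 TPM, and Ctsc by 0.35 (SE 0.122, adjusted p = 0.0280), from 11.9 ± 1.57 to 15.4 ± 1.69 TPM, with 4 of 5 CAC libraries above the NONCAC range for each. Ctsf (25.4 ± 3.38 and 30.7 ± 8.88 TPM, adjusted p = 0.240) and Ctsk (3.38 ± 0.641 and 3.93 ± 1.47 TPM, adjusted p = 0.542) did not pass. All 8 calls held without library 3, at smaller values for Ctsa (0.35), Ctsb (0.43), Ctsd (0.77), Ctsz (0.66) and Ctss (1.69), whereas the calls of Ctsa and Ctsc were lost in 6 (CAC 4 or any NONCAC) and 5 (CAC 4 or 5, NONCAC 2, 3 or 5) of the 10 fits that left out 1 library (adjusted p up to 0.0679 and 0.0727). After median-ratio scaling 4 calls held, those of Ctsl (1.41), Ctss (1.52), Ctsd (0.59) and Ctsz (0.48), where 4528 of the 11105 genes were called in either direction. Ctsa, Ctsb and Ctsh were then at 0.12, 0.20 and 0.41 and Ctsc, Ctsf and Ctsk below 0 (−0.09, −0.23 and −0.23).

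In SOL, 2 of 10 cathepsins rose with the cachectic melanoma, where 17.5% of the 11957 genes tested rose, and 1 fell, where 7.54% fell. Ctsd was at 426, 442, 422, 453 and 460 TPM in NONCAC and at 584, 637, 718, 518 and 611 TPM in CAC libraries, all of which were higher (0.47, SE 0.0898, adjusted p = 0.00386). Ctsz was at 48.2, 41.3, 42.7, 43.9 and 45.1 TPM and at 55.5, 54.9, 111, 64.7 and 56.0 TPM, again without overlap (0.56, SE 0.172, adjusted p = 0.0333). These were the 2 members whose CAC libraries all lay above the NONCAC ones, where 14.6% of genes did. The call of Ctsz was lost in 6 of 10 fits that left out 1 library (CAC 4 or any NONCAC; adjusted p up to 0.0750), and without library 3 of CAC, its highest value, the change was 0.38 (adjusted p = 0.00534).

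Ctsk in CAC SOL was at 3.08, 9.20, 2.68, 10.2 and 8.67 TPM, against the NONCAC values of 9.97 to 18.3 TPM given above. It fell by 1.15 (SE 0.318, adjusted p = 0.0224), and 4 of 5 CAC libraries were below the lowest NONCAC library. Without NONCAC library 1 the change was −1.07 (adjusted p = 0.0540). Of 7 fibroblast markers 4 fell in the same contrast, among them the collagen genes Col1a1 (−2.33) and Col1a2 (−2.30), and their summed level went from 640 to 879 TPM (median 781) to 240 to 672 TPM (median 309); their part in the Ctsk result was not tested. Ctsl was at 203, 190, 227, 210 and 210 TPM in NONCAC and at 210, 403, 394, 190 and 294 TPM in CAC SOL (0.45, SE 0.197, adjusted p = 0.113), with 3 CAC libraries above the NONCAC range and 2 within it. It passed without CAC library 1 (0.56, adjusted p = 0.04996) or 4 (0.60, adjusted p = 0.0305). Ctsh went from 3.54 ± 0.746 to 5.03 ± 1.06 TPM (0.40, adjusted p = 0.0610) and passed without CAC library 3 (0.50, adjusted p = 0.0213) or NONCAC library 1 (0.50, adjusted p = 0.0314). The levels of Ctsa (32.2 ± 1.58 and 35.1 ± 4.07 TPM), Ctsb (163 ± 10.1 and 161 ± 26.6 TPM), Ctsc (5.57 ± 1.53 and 5.43 ± 1.81 TPM), Ctsf (27.7 ± 1.44 and 25.0 ± 3.22 TPM) and Ctss (9.27 ± 0.952 and 19.2 ± 21.7 TPM) gave adjusted p of 0.250 or more. The mean of Ctss in CAC SOL rested on library 5, at 57.5 TPM, without which its change was −0.02. Without library 2, the one that stood apart in fibre genes, the same 3 members were called (Ctsd 0.45, Ctsz 0.63, Ctsk −1.28).

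These contrasts differ in group size and spread, so the difference of the melanoma effect between muscles was tested in 1 fit over mock diaphragm, TA and SOL. Between TA and SOL, 3 members had a higher effect in TA, where 19.1% of the 13501 genes did, with a median of 0.54 beside 0.30. They were Ctsl (1.43, SE 0.479, adjusted p = 0.0332), Ctsk (1.28, SE 0.342, adjusted p = 0.00993) and Ctsb (0.71, SE 0.233, adjusted p = 0.0296). Ctsl rose in TA and did not pass in SOL, Ctsk fell in SOL and did not pass in TA, and Ctsb rose in TA and was at −0.03 (interval −0.27 to 0.20) in SOL. After median-ratio scaling none of the 3 passed. Without TA CAC library 3, Ctsl was at 1.00 (adjusted p = 0.0976) and Ctsb at 0.46 (adjusted p = 0.0627). The call of Ctsl was also lost without SOL CAC library 1 or 4 or SOL NONCAC library 3 or 5 (adjusted p 0.0510 to 0.0711), and that of Ctsb without SOL CAC library 1 or 2 (adjusted p up to 0.0688). Gained were Ctsa (0.57), Ctsd (0.74) and Ctsf (0.47) without TA CAC library 1, at adjusted p of 0.0455 or less, and Ctsf (0.45, adjusted p = 0.0472) without SOL CAC library 3.

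Between diaphragm and TA 0 members differed, where 5.04% of genes did in either direction, and between diaphragm and SOL 0, where 2.52% did; at an unadjusted p below 0.05 the first held 3 members (Ctsd, Ctsk and Ctsl) beside 3295 of all genes (24.4%). In the second there were 4 members (Ctsa, Ctsb, Ctsc and Ctsk) beside 2134 (15.8%). The largest differences of effect were −1.03 for Ctsl (adjusted p = 0.130) and −0.96 for Ctss (adjusted p = 0.355) between diaphragm and TA, and 0.67 for Ctsk (adjusted p = 0.263), 0.64 for Ctsc (adjusted p = 0.173) and 0.62 for Ctsb (adjusted p = 0.0983) between diaphragm and SOL. The member medians were −0.38 beside −0.18, and 0.43 beside 0.12. Columns of different muscles that carry the same number deviated together, and with that number as a block the counts were 1 between diaphragm and TA (Ctsl −1.13, adjusted p = 0.0172), where 17.2% of all genes differed in either direction, 2 between diaphragm and SOL (Ctsa 0.48, adjusted p = 0.0439; Ctsb 0.59, adjusted p = 0.0190), where 7.36% did, and 6 between TA and SOL, where 38.7% of genes were higher in TA. Calls over all genes thus rose with the block too. The 6 were Ctsa, Ctsb, Ctsd, Ctsf, Ctsk and Ctsl, at adjusted p of 0.0237 or less.

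The genes that deliver, activate and inhibit cathepsins were described by counts in the same contrasts, to be read against the share of all genes that rose (30.9% in mock diaphragm, 7.14% in rFibcd1 diaphragm, 56.4% in TA and 17.5% in SOL). In mock diaphragm, 15 of 17 genes of the lysosomal membrane and proton pump rose (median 0.40 beside 0.20 over all genes), among them Lamp1, the most abundant lysosomal membrane glycoprotein (493 ± 21.3 and 704 ± 110 TPM, 0.50), Cd63 (0.86) and Atp6v1h, a pump subunit (0.67). In TA 17 of 17 rose (median 0.56 beside 0.41), led by Cd63 (1.66) and Lamp2 (1.19), and in SOL 12 of 17 (median 0.36 beside 0.09), led by Atp6v1h (1.07). With rFibcd1 in the diaphragm 8 of 17 were higher. Other lysosomal hydrolases rose in 10 of 17 in mock diaphragm (median 0.44), 0 of 17 in rFibcd1 diaphragm (0.23), 12 of 17 in TA (0.66; Gaa, the acid glucosidase, 1.37) and 3 of 17 in SOL (0.15), about the share of all genes, and there Ppt1 fell (−0.68).

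Of the sorting genes, 3 of 7 rose in mock diaphragm, 6 of 7 in TA and 3 of 7 in SOL, where 30.9, 56.4 and 17.5% of all genes rose. Gnptab, which makes the mannose 6-phosphate tag, rose in all 3 (0.67, 1.22 and 0.50). Among other lysosomal peptidases and their partners, 4 of 9, 6 of 8 and 1 of 8 rose, the last below the share of all genes, and Lgmn, the legumain that processes cathepsin precursors, rose in each muscle: from 51.7 ± 8.48 to 101 ± 20.3 TPM in mock diaphragm (0.94, adjusted p = 0.000264), by 1.33 in TA and by 0.66 in SOL. Of the inhibitors, 3 of 8 rose in mock diaphragm (median 0.49), 4 of 8 in rFibcd1 diaphragm (median 0.61), where 7.14% of all genes rose, 4 of 5 in TA and 2 of 5 in SOL. In rFibcd1 diaphragm 1 of 7 sorting genes and 1 of 9 other peptidases rose. Cst3, the secreted cystatin C, rose in diaphragm (0.60) and TA (0.80), Cstb, the cytosolic cystatin B, in SOL (0.80), and Ctla2a, which resembles a cathepsin propeptide, in all 3 (0.86, 1.47 and 0.97). Of TFEB, its relatives and regulators, 1 of 6 rose in mock diaphragm (Mcoln1, a lysosomal calcium channel, 0.35), 4 of 6 in TA (Tfeb 18.1 ± 1.28 and 27.6 ± 2.29 TPM, 0.58) and 0 of 6 in SOL, the first and last below the share of all genes. Trim63 rose in mock diaphragm (0.96), TA (2.00) and SOL (0.93), and Fbxo32 in TA (2.32). Without CAC mock library 6, Trim63 in diaphragm was at 0.63 and did not pass (adjusted p = 0.116). Without CAC library 2 of SOL, Trim63 there was at 0.58 (adjusted p = 0.0106) and Fbxo32 went from −0.27 to −0.56 (adjusted p = 0.00917). The same library changed other soleus counts: without it 8 of 17 membrane and pump genes, 2 of 17 hydrolases and 2 of 7 sorting genes rose (Gnptab 0.45, adjusted p = 0.0667), beside 15.5% of all genes. Of the 7 fibroblast markers, 2 (Col1a1 and Col1a2) then fell. In CAC mice, rFibcd1 called 0 genes of these lists by limma.

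Which libraries were high also differed between cathepsins. Values were centred on the group mean of log2(TPM + 1), and correlations over the 59 libraries are given as a description with no p, since libraries of one mouse, depth and RNA composition are shared. Pcna-ps2 state was not taken out. In NONCAC rFibcd1 diaphragm Ctss was at 45.6 to 194 TPM in high and 15.8 to 26.6 TPM in low libraries. In NONCAC mock diaphragm the states overlapped (15.2 to 52.8 and 16.8 to 74.6 TPM). The part of state in the correlations was not tested. The pairs with the highest r fell into sets that were not clearly apart, and no clustering was run. Ctsa, Ctsb and Ctsz varied together (Pearson r 0.95 for Ctsa and Ctsb, 0.91 for Ctsb and Ctsz, 0.87 for Ctsa and Ctsz), as did Ctss, Ctsh and Ctsc (0.87, 0.83 and 0.85 for Ctss and Ctsh, Ctss and Ctsc, and Ctsh and Ctsc). Within muscles the latter 3 values were 0.93, 0.89 and 0.88 in diaphragm, 0.86, 0.48 and 0.49 in TA and 0.41, 0.74 and 0.58 in SOL. Ctsa, Ctsb and Ctsz had r of 0.75 to 0.98 in each muscle. Between these sets, Ctsz had r of 0.77 with Ctsh, 0.74 with Ctss and 0.72 with Ctsc. Those values were 0.86, 0.89 and 0.84 in diaphragm, 0.59, 0.56 and 0.07 in TA and −0.39, −0.28 and −0.08 in SOL. Ctsd went with Ctsa (0.73) and Ctsl (0.70), while Ctsl was unrelated to Ctsc (−0.05). Ctsk and its neighbour Ctss reached 0.37.

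The sets also differed in the genes they went with. Ctss, Ctsh and Ctsc followed the mean of 16 macrophage markers (r 0.96, 0.89 and 0.86, Spearman rho 0.96, 0.86 and 0.86, r without the 2 most extreme libraries 0.95, 0.85 and 0.85). Ctsz followed other lysosomal peptidases (r 0.90, rho 0.91) and hydrolases (0.89 and 0.92), and Ctsb the hydrolases (0.88 and 0.89) above the membrane and pump genes (0.86 and 0.77). Ctsa and Ctsd followed the membrane and pump genes (r 0.90 and 0.82, rho 0.82 and 0.75), but by rho Ctsa was most like the hydrolases (0.86). By Pearson r, Ctsl was most like the mean of Trim63 and Fbxo32 (r 0.75, rho 0.54, r without 2 libraries 0.61), but by Spearman rho the membrane and pump genes (r 0.69, rho 0.60, 0.58 without 2 libraries), the inhibitors (rho 0.56) and the sorting genes (rho 0.55) came first. Ctsk followed the fibroblast markers (0.72, 0.63 and 0.69). Likeness to the macrophage markers was not particular to Ctss, Ctsh and Ctsc: Ctsz (r 0.82, rho 0.80), Ctsb (0.74 and 0.70) and Ctsa (0.68 and 0.65) shared it. Ctsl and Ctsd had r of 0.18 and 0.19. In the libraries with most Ctsl, both ligases were high too: CAC mock diaphragm library 6 (Ctsl 999 TPM) had Trim63 at 1481 and Fbxo32 at 877 TPM, TA CAC library 3 (898 TPM) had 1376 and 789 TPM, and CAC rFibcd1 diaphragm library 3 (517 TPM) had 1209 and 660 TPM. The library with most Ctss (CAC rFibcd1 diaphragm library 1, 511 TPM) had the largest sum of macrophage markers, 4492 TPM.

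**Figure D4:**
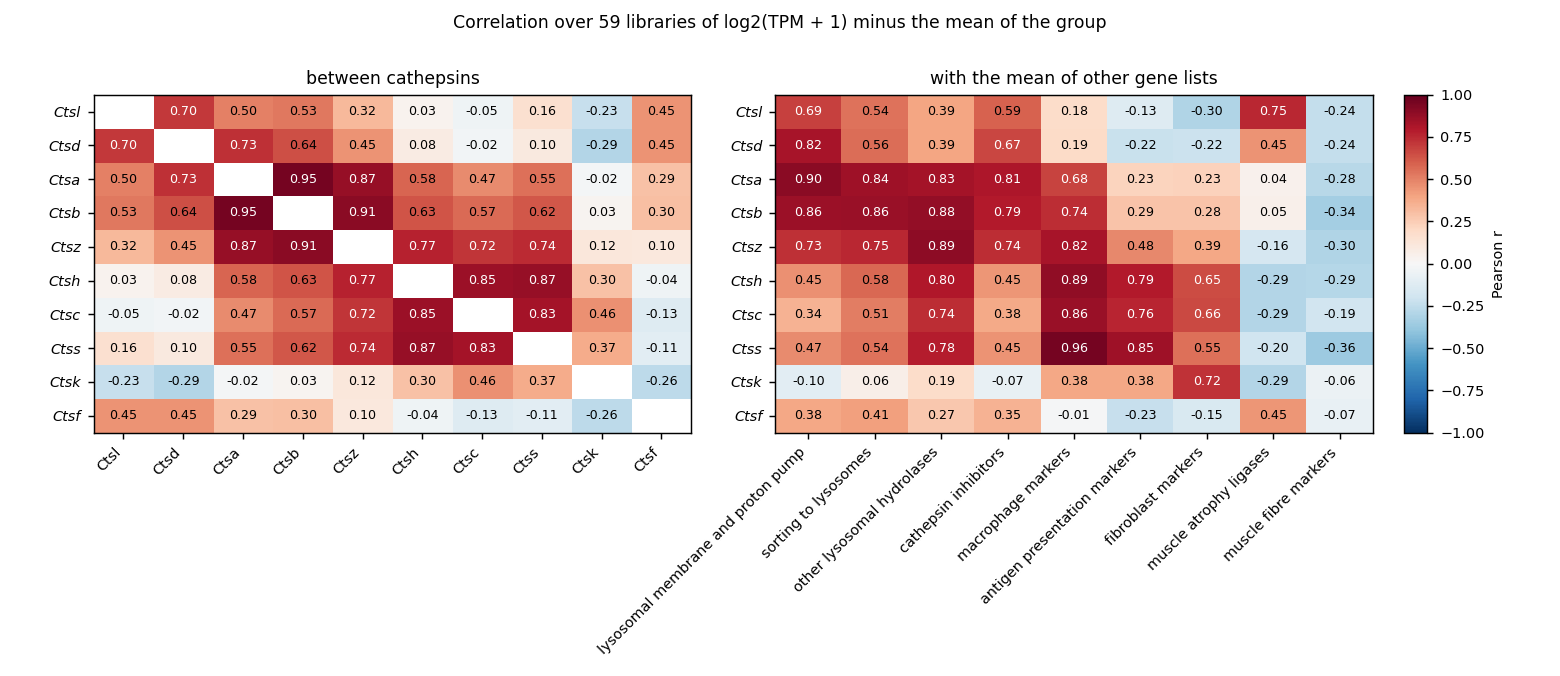
Pearson r over 59 libraries of log2(TPM + 1) minus the group mean, between cathepsins (left) and between each cathepsin and the mean of another gene list (right). Values are 0.87 to 0.95 among Ctsa, Ctsb and Ctsz and 0.83 to 0.87 among Ctsh, Ctsc and Ctss, with Ctsz at 0.72 to 0.77 to the latter. By this measure Ctsl is most like the atrophy ligases (0.75) and Ctsk most like the fibroblast markers (0.72).

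**Figure D5:**
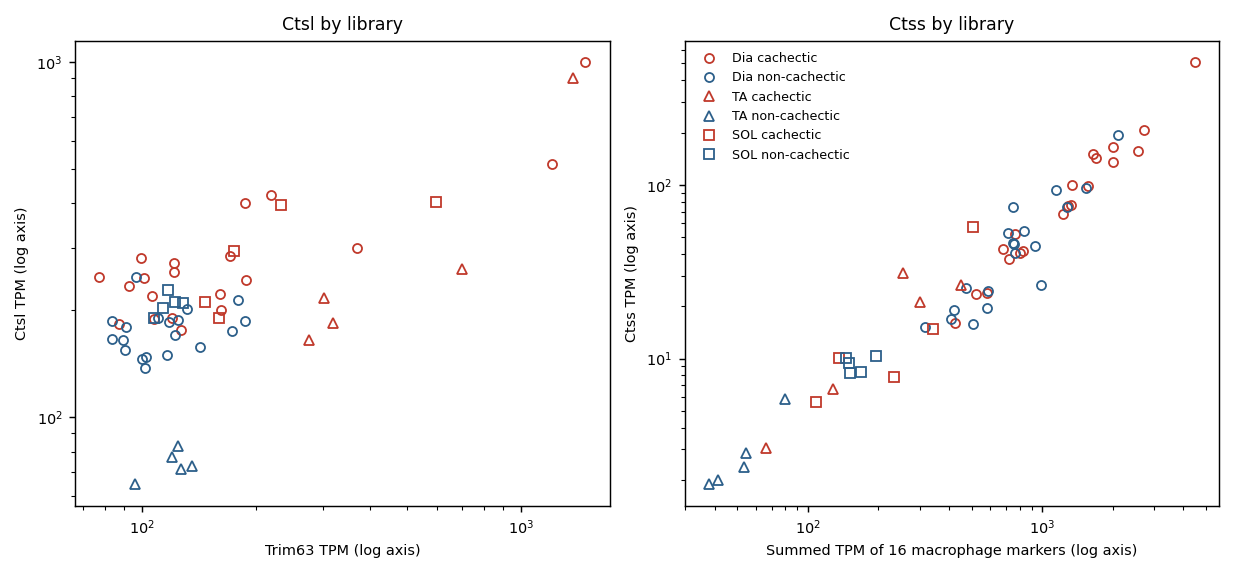
Left, Ctsl TPM against Trim63 TPM and, right, Ctss TPM against the summed TPM of 16 macrophage markers in each of the 59 libraries, on log axes; colour marks the melanoma and shape the muscle. The 3 libraries with Trim63 at 1209 TPM or more hold the 3 highest Ctsl levels, and Ctss runs with the marker sum across muscles from 1.88 to 511 TPM.

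Among the 12252 genes with at least 1 TPM in 30 or more libraries, the gene most like a cathepsin by centred Pearson r was Lamp1 for Ctsd (r 0.91, rho 0.79, 0.84 without 2 libraries), Arhgdia for Ctsa (0.96, 0.94 and 0.93) and Cstb for Ctsz (0.94, 0.92 and 0.92). For Ctsb it was Ctsa itself, followed by Arhgdia (r 0.93). For Ctss it was Fcer1g, an Fc receptor subunit of myeloid cells (0.95, 0.95 and 0.94), followed by Cd48, Mpeg1, Cyth4 and Ms4a6c. Ctsh was most like Lcp2 (0.92, 0.90 and 0.91). For Ctsk it was Serpinf1 (0.77, 0.68 and 0.72), followed by Col1a2, Pdgfrl, Col1a1 and Mmp2, genes of the extracellular matrix among them. Ctsl was most like Ranbp9 (0.89, 0.69 and 0.79), followed by Clcc1, Tspyl2, Cnppd1 and Ranbp10. Ctsf, with the weakest likeness of the 10, was most like Pnpla2, a triglyceride lipase (0.71, 0.62 and 0.56).

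Markers of several other cell types were counted in the same melanoma contrasts, those of macrophages among them. In mock diaphragm 7 of 16 rose (median 0.81), where 30.9% of all genes rose, among them the complement gene C1qa (1.25) and the scavenger receptor Cd163 (1.56), while Cd68 (0.87, adjusted p = 0.0640) and Adgre1 (0.56, adjusted p = 0.230) did not pass, and the sum ran from 317 to 936 TPM in NONCAC and from 523 to 1999 TPM in CAC libraries. In TA the 12 that were high enough to be tested all rose (median 1.49), the other 4 being too low, where 56.4% of all genes rose, with sums of 37.8 to 80.1 and 66.3 to 448 TPM. In SOL 2 of 13 rose, below the 17.5% of all genes (median 0.19, with Cd68 at 1.99, C1qa at 0.19 and Adgre1 at −0.13), with sums of 146 to 195 and 109 to 504 TPM. In rFibcd1 diaphragm 3 of 16 macrophage markers were higher (median 0.70 beside 0.08), where 7.14% of all genes were, with summed medians of 875 and 1496 TPM. The neutrophil gene S100a9 rose in all 3 muscles (1.53 in mock diaphragm, 2.03 in TA and 1.51 in SOL). Of the 9 neutrophil markers listed, 3 were tested in mock diaphragm, 2 in TA and 2 in SOL, and these were called higher. A gene low in NONCAC libraries can pass the filter through CAC libraries alone. That every tested neutrophil marker, and every tested macrophage marker in TA, was called higher is therefore no test of these lists. The summed median of the 9 neutrophil markers went from 5.70 to 31.1 TPM in mock diaphragm. Of 5 adipocyte markers 1 rose in mock diaphragm (Cfd, 1.34, with a list median of 0.72 beside 0.20), below the 30.9% of all genes, with summed medians of 800 and 1609 TPM. The centred r of the adipocyte markers with Ctsa, Ctsb and Ctsz was 0.48, 0.51 and 0.49 (0.61, 0.64 and 0.64 without 2 libraries). In the main fits Ctss, Ctsh and Ctsc passed in TA, where the 12 tested macrophage markers rose, and in neither of the other muscles. The difference of effect between TA and SOL did not pass for any of them (Ctss 1.44, adjusted p = 0.151, Ctsh 0.33, adjusted p = 0.422, and Ctsc 0.41, adjusted p = 0.288). That of Ctss passed without TA CAC library 2 (1.89, adjusted p = 0.0492) or SOL CAC library 5 (1.95, adjusted p = 0.0434). The part of the macrophage, neutrophil and adipocyte markers in the changes of the cathepsins was not tested.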

How the data were processed

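Muscle RNA was sequenced from polyA-selected libraries, and the authors deposited 1 table of TPM values per gene, made with CLC Genomics Workbench on the mouse genome (mm10); the annotation and the use of strand in counting are not given in the sources used here. The preparation kit and instrument are named differently in the labels and in the study's methods. TPM columns share a fixed sum, so depth is unknown and no interval from counts is given. Members and gene lists were chosen with earlier results of these data known; named genes were the 10 members, up to 3 called members of each list per comparison (those with the largest changes and a mean of at least 5 TPM), Cd68, Adgre1, C1qa, Cst3, Cstb and Lgmn in any case, and, of the 5 genes most like each cathepsin, those given in the text; some are not reported here.

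Values were fitted as log2(TPM + 1) with limma 3.58.1 (trend, R 4.3.3), keeping genes at 1 TPM or more in at least as many libraries as the smallest group, with Benjamini-Hochberg adjustment over all genes kept. The 4 diaphragm groups shared 1 fit, TA and SOL had 1 each, and muscles were compared in a fit of mock diaphragm, TA and SOL. The fits were tested on simulated data. p-values measure the spread between libraries, which the labels call replicates. Alternatives were a pseudocount of 0.1, no filter, median-ratio scaling, Dunn tests, Pcna-ps2 state as a term, high-state libraries alone, the 2 groups alone and 98 fits that left out 1 library; the column-number block and the gene list counts without 1 library were chosen after seeing the data. Same-numbered columns of TA and the other 2 muscles deviated together in all 20 pairs (correlation of deviations from group means 0.133 to 0.502), and the block's consensus correlation was 0.381. No 2 libraries held identical values (highest r 0.994). Sequences are from RefSeq (GRCm38.p6) and positions from GENCODE. Python 3.11.15 and pandas 2.3.3 were used for correlations.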

Additional observations from a re-analysis of the deposited data

Results flagged for a closer look

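In each of the 8 groups (5 to 10 libraries), the 10 cathepsins and their sum, 88 sets of values in all, were searched for a highest or lowest library far from its group by Dixon's criterion. Chance alone meets it in about 1 of 20 sets of independent, normally distributed values. The TPM were not log-transformed and the sets share libraries, so their count cannot be set against that rate. There were 25 such values, in 11 libraries. TA CAC library 3 held 6 of them, all the highest of the group: Ctsd at 1818 TPM (next 757), Ctsl at 898 (262), Ctsb at 455 (198), Ctsz at 98.6 (40.1), Ctsa at 61.7 (30.05) and the sum at 3425 (1328). In that library Trim63 was at 1376 and Fbxo32 at 789 TPM and mitochondrial transcripts at 25.1%. NONCAC rFibcd1 diaphragm library 6 held 5, Ctsb at 312 TPM (next 235), Ctss at 194 (95.3), Ctsz at 132 (81.3), Ctsh at 42.6 (24.2) and the sum at 1717 (1384), with 2101 TPM of macrophage markers. CAC rFibcd1 diaphragm library 1 held 4, Ctss at 511 TPM (next 206), Ctsz at 295 (139), Ctsc at 119 (29.8) and the sum at 2610 (1870), with 4492 TPM of macrophage markers.

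The others were Ctsl at 999 TPM (next 422) in CAC mock diaphragm library 6, Ctsl at 517 (283) and Ctsf at 44.6 (32.2) in CAC rFibcd1 diaphragm library 3, Ctsk at 13.5 (10.2) in NONCAC rFibcd1 diaphragm library 3, Ctss at 5.85 (2.84) in TA NONCAC library 4 and Ctsc at 12.47, lowest of its group (15.6), in TA CAC library 2. In soleus they were Ctsc at 8.29 TPM (next 5.09) in NONCAC library 1, Ctsa at 42.2 (34.8) and Ctsz at 111 (64.7) in CAC library 3 and Ctss at 57.5 (14.8) in CAC library 5. The libraries whose column carries number 8 had the highest Ctsd of the CAC mock diaphragm (1139 TPM), CAC TA (1818 TPM) and CAC soleus (718 TPM) groups.

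The effect of the cachectic melanoma differed between TA and soleus, by a test of the difference, for Ctsl (1.43), Ctsk (1.28) and Ctsb (0.71) on the log2 scale. None of the 3 passed after median-ratio scaling, and without TA CAC library 3 Ctsl (1.00, adjusted p = 0.0976) and Ctsb (0.46, adjusted p = 0.0627) did not pass.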

How the results depend on the processing

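The tests rest on TPM, so depth cannot be weighed, and limb contrasts have 5 libraries a group. Counts of cathepsins called moved by over 1.5 times as follows; the other alternatives gave 4 to 8 in place of 6 in mock diaphragm and 2 or 3 in place of 3 in SOL, where Ctsz was lost with no filter and Ctsk with Dunn tests. In rFibcd1 diaphragm the 2 melanoma calls became 0 with no filter, Dunn tests, state as a term, high-state libraries alone and the 2 groups compared alone. For rFibcd1 against mock in CAC, the 1 call became 0 with median-ratio scaling, Dunn tests and the 2 groups alone; in NONCAC, 0 became 1 with the 2 groups alone. In mock diaphragm, high-state libraries alone gave 3 in place of 6. Median-ratio scaling gave 4 in place of 8 in TA, 1 in place of 0 for diaphragm against SOL effects and 0 in place of 3 for TA against SOL effects. Calls over all genes moved too, from 6680 to 4528, from 340 to 491 and from 2750 to 1466 in these contrasts. Dunn tests gave 0 in place of 5 for NONCAC levels of diaphragm against SOL and 2 in place of 7 for TA against SOL. Calls over all genes under the other alternatives are not given here, so the moves are not shown to be particular to cathepsins. The cause of these moves was not tested. The replicate numbers of the labels could not be tied to columns, so no pairing within a muscle was run. With the column number as a replicate block across muscles, 1, 2 and 6 effects differed (diaphragm against TA, diaphragm against SOL, TA against SOL), and the counts for levels were 9, 5 and 7. Over all genes 17.2% and 7.36% of effects differed, and 38.7% were higher in TA than in SOL. The share of all genes for levels under the block is not given here. Leaving out 1 library gave 5 to 6 in mock diaphragm, 0 to 3 in rFibcd1 diaphragm, 0 to 1 and 0 for rFibcd1 in CAC and NONCAC, 0 for the interaction, 6 to 8 in TA, 2 to 4 in SOL, 0 to 1, 0 to 2 and 1 to 6 for effects between muscles, and 8 to 9, 4 to 6 and 7 for levels. The 6 came without TA CAC library 1 and the 1 without TA CAC library 3 or SOL CAC library 1; Dia-SOL effects reached 2 without TA CAC library 3 and Dia-TA effects 1 without CAC mock library 6.

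Signs turned as follows, in members that had not passed except Ctsf in levels of diaphragm against TA (0.45, adjusted p = 0.000204) and Ctsc in TA (0.35, adjusted p = 0.0280): with median-ratio scaling Ctsk in rFibcd1 diaphragm (−0.0708), Ctsf in mock diaphragm (−0.0942), Ctsd for rFibcd1 in NONCAC (−0.0169; there Ctsk turned to 0.0251 with high-state libraries alone), Ctsc, Ctsf and Ctsk in TA (−0.0948, −0.229 and −0.235), Ctsb and Ctsf in levels of diaphragm against TA (−0.296 and −0.0756) and Ctsb, Ctsd and Ctsf in levels of TA against SOL (0.373, 0.365 and 0.452). Ctsk in rFibcd1 diaphragm was −0.00145 with a pseudocount of 0.1, and Ctsh in mock diaphragm −0.226 with state as a term. Leaving out 1 library moved Ctsk in rFibcd1 diaphragm between −0.101 and 0.0817 and in TA between −0.0112 and 0.273, and in SOL Ctsb between −0.114 and 0.0374, Ctsc between −0.177 and 0.107 and Ctss between −0.0238 and 0.763. In members that passed under no setting, signs also turned in 7 of 50 values for the interaction, 4 of 40 and 2 of 40 for effects of diaphragm against TA and SOL and 1 of 50 for levels of diaphragm against SOL, and, with 1 library left out, in 51, 12, 1 and 5 of 390 for these and in 10 of 390 for rFibcd1 in CAC.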
